A study of Arabidopsis thaliana with 4 samples.

Results

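Growth-regulating factors (GRFs) are a plant family of transcription factors that keep cells dividing in young leaves, flowers and other growing organs. They bind DNA through a WRC domain and act with coactivators of the GRF-interacting factor (GIF) family, which attach through the QLQ domain of the GRF and bring in chromatin remodelling complexes. Most GRF messenger RNAs carry a site for the microRNA miR396, which guides their cleavage as an organ matures and so limits the dividing zone. Here the 9 Arabidopsis thaliana loci GRF1 to GRF9 were taken by locus identifier from 23498 loci with a co-translational RNA decay index. The family was chosen with earlier results of these data known. Of the 9, 7 carry the miR396 site (GRF1, GRF2, GRF3, GRF4, GRF7, GRF8 and GRF9), and GRF5 and GRF6, which lack it, served as the contrast. The same symbols are also in use for 14-3-3 proteins ("general regulatory factors"), which is why loci and not symbols were matched.

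The index comes from GMUCT, the genome-wide mapping of cleaved and uncapped transcripts, which reads the front ends of polyadenylated RNAs that have lost their cap. These are mostly products of decay or of cleavage. It is a ratio without a unit, with 1 value per gene model and library. The sources used here do not say how it was calculated or from how many reads at least. The meaning of a value over or under 1 is thus not stated, and the number of reads behind a value is unknown. A high index is called only a high index.

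There were 4 libraries. The abh1 group was a loss-of-function mutant of ABH1 in the Col-0 ecotype (2 libraries). Their titles carry the numbers 1 and 8, and they are called replicates 1 and 2 here. The comparison group was wild-type Col-0 with CHX in the title (Col-0_CHX, 2 libraries). ABH1, also known as CBP80, belongs to the nuclear cap-binding complex of messenger RNA. All 4 were labelled as immature inflorescence from buds of plants about 4 weeks old under 16 h of light and 8 h of dark. The labels do not spell out CHX, name no allele of abh1, and describe every plant as otherwise untreated. The mutation and whatever CHX stands for separate the same libraries, so their parts cannot be told apart. Nothing in the labels says whether the 2 libraries of a group were grown or extracted separately, and p-values therefore reflect the spread between libraries, which may be technical.

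In the abh1 libraries all 9 GRF genes had an index, between 0.889 and 2.21, while in the Col-0_CHX libraries the family was split. GRF3 and GRF4 lay near the top of the Col-0_CHX libraries and 3.26-fold and 4.24-fold lower in abh1, GRF1 and GRF2 overlapped between the groups, GRF8 had a very low value in 1 Col-0_CHX library, and GRF5, GRF6, GRF7 and GRF9 had no index there. None of the differences passed the test across all loci, in which 0 of 17049 loci passed.

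GRF3 (AT2G36400) and GRF4 (AT3G52910) both promote cell proliferation in leaves and cotyledons and both carry the miR396 site. GRF3 stood at 1.3 and 1.39 in the abh1 libraries, against 3.38 and 5.70 in the Col-0_CHX libraries. Both abh1 values lay below both Col-0_CHX values, as they did at 45.2% of all loci. Each of the 4 pairings of an abh1 with a Col-0_CHX library was thus necessarily lower in abh1. The log2 differences of these pairings were -2.13 to -1.28. GRF4 had 1.07 and 1.13 in the abh1 libraries, against 7.25 and 3.0 in the Col-0_CHX libraries. Its groups did not overlap either, with pairwise log2 differences of -2.76 to -1.41, although its Col-0_CHX libraries differed from each other by 2.42-fold.

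**Figure D1:**
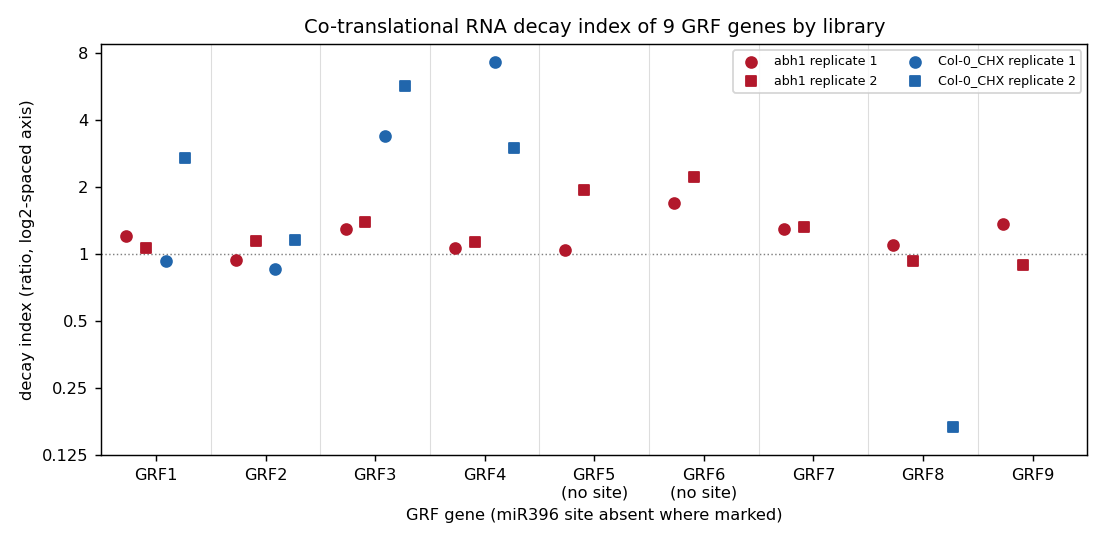
Decay index (ratio, on an axis spaced by log2) of each of the 9 GRF genes in the abh1 libraries (red, left) and the Col-0_CHX libraries (blue, right), with circles for replicate 1 and squares for replicate 2. A missing point means that the library gave no index; GRF3 and GRF4 are the genes whose Col-0_CHX points, from 3.0 to 7.25, all stand above their abh1 points.

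The log2 difference, abh1 minus Col-0_CHX, was -1.71 ± 0.31 (SE, 95% interval -2.61 to -0.80) for GRF3 and -2.09 ± 0.49 (SE, 95% interval -3.51 to -0.66) for GRF4. By limma's moderated test with Benjamini-Hochberg adjustment over 17049 loci, GRF3 had an unadjusted p of 0.00733 and an adjusted p of 0.167, and GRF4 an unadjusted p of 0.0166 and an adjusted p of 0.183. Neither passed the threshold of 0.05. The share of all loci that passed was 0%, while 17.2% of loci were lower in abh1 at an unadjusted p under 0.05. For a single gene, an exact two-sided permutation test of 2 libraries against 2 gave p = 0.333 for GRF3 and for GRF4. That is the smallest p that this design allows. Any gene whose groups do not overlap gets it, so it adds nothing to the non-overlap.

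By size these differences stood far down the distribution. Of all 17049 loci, 1.29% had a more negative difference than GRF3 and 0.510% a more negative one than GRF4. The whole abh1 libraries lay lower, with a median difference over all loci of -0.23, and relative to that median GRF3 was at -1.48 and GRF4 at -1.86. After quantile normalization GRF3 was at -1.03 (limma adjusted p = 0.305). Non-overlap with lower values in abh1 was common, at 45.2% of all loci, so the 2 of 4 GRF genes that showed it were near that share. The opposite order was seen at 10.7% of all loci and at 0 of these 4.

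GRF1 (AT2G22840) and GRF2 (AT4G37740), which also carry the site and act in leaf growth alongside GRF3, overlapped between the groups. GRF1 stood at 1.21 and 1.06 in the abh1 libraries, against 0.932 and 2.70 in the Col-0_CHX libraries. One Col-0_CHX library was thus below both abh1 libraries and the other above both. The log2 difference was -0.49 ± 0.59 (SE), with a 95% interval of -2.20 to 1.22 and a limma adjusted p of 0.680. It turned to 0.28 when the second Col-0_CHX library was left out and was -1.26 when the first was left out.

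GRF2 had 0.936 and 1.15 in the abh1 libraries, against 0.857 and 1.16 in the Col-0_CHX libraries. The groups covered nearly the same range. The log2 difference was 0.06 ± 0.23 (SE), with a 95% interval of -0.62 to 0.74 and a limma adjusted p of 0.909. This interval excludes a log2 difference as large as the estimates for GRF3 and GRF4, and it lies above the whole interval of either gene, though the difference between genes was not itself tested. GRF2 was -0.16 without the first Col-0_CHX library and -0.09 without the second abh1 library, so its sign was not settled.

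**Figure D2:**
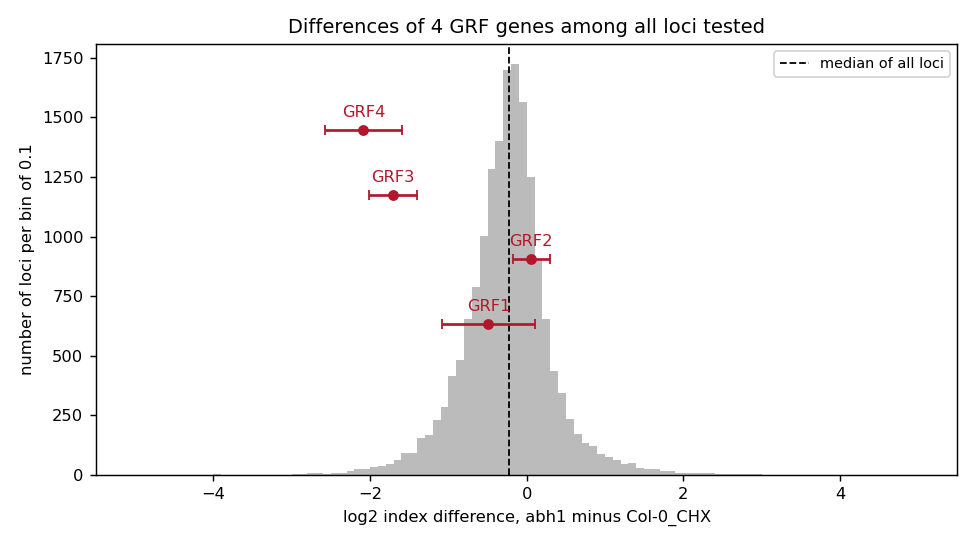
Histogram of the log2 index difference, abh1 minus Col-0_CHX, over the 17049 loci with an index in all 4 libraries (vertical axis, loci per bin), with the 4 GRF genes tested drawn as red points with a bar of 1 SE; the height of a red point has no meaning. GRF4 and GRF3 lie in the left tail at -2.09 and -1.71, whereas GRF1 and GRF2 lie within the bulk around the dashed median of -0.23.

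Over the 4 GRF genes with an index in all 4 libraries, 3 were lower in abh1 and 1 was higher, beside 72.2% of all loci lower. Their median log2 difference was -1.10, against -0.23 over all loci. Taken over these 4 genes, the median index came to 1.14 and 1.14 in abh1, compared with 2.15 and 2.85 in Col-0_CHX. The same medians over all 17049 loci were 1.15 and 1.14 in abh1 and 1.37 and 1.29 in Col-0_CHX, so in abh1 these genes sat at the level of other loci. The median rested on few genes and on which libraries were used: it was -0.53 without the second Col-0_CHX library and -0.49 when GRF8 was added to the genes.

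GRF8 (AT4G24150), another family member with the site, had a low value in the single Col-0_CHX library that listed it. It had 1.10 and 0.929 in the abh1 libraries, against 0.167 in the second Col-0_CHX library. The first Col-0_CHX library gave it no index. In a fit over the 18640 loci with an index in at least 1 library of each group, which uses this lone library as the whole Col-0_CHX group, the log2 difference was 2.60 ± 0.23 (SE, limma adjusted p = 0.162), and 0% of loci passed. The SE holds no spread of Col-0_CHX and was taken from the abh1 pair and limma's prior over all loci, so this value says nothing of how a second Col-0_CHX library would lie. The value 0.167 was shared exactly by 30 loci of that library.

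Such repeats were also found among the other GRF genes. The reads behind a value are unknown, so the part of read number in them was not tested. Values held identically by more than 10 loci of a library were counted as repeated, which was true of 27.2% and 29.3% of the loci in abh1, and of 43.6% and 42.7% in the Col-0_CHX libraries. Among the GRF genes it was true of 3 of 9 and 2 of 9 in abh1, and of 2 of 4 and 4 of 5 in Col-0_CHX. The GRF4 value of 3.0 in the second Col-0_CHX library was held by 115 loci, whereas its 7.25 in the first was held by 2. The GRF3 value of 3.38 was held by 12 loci and its 5.70 by 1, and the GRF1 value of 2.70 by 11. In the first abh1 library GRF3 and GRF7 shared the value 1.3, held by 44 loci. The GRF2 value of 0.857 in the first Col-0_CHX library was held by 31. Each of the 4 genes tested had a repeated value somewhere in the 4 libraries, so none of them is among the 6572 loci free of repeated values.

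The GRF genes also varied more among themselves in Col-0_CHX. Over the 4 genes with an index in all libraries, the highest index was 1.39-fold and 1.31-fold the lowest in the abh1 libraries, against 8.46-fold and 4.93-fold in the Col-0_CHX libraries. The SD of the log2 index across these genes was 0.21 and 0.17 in abh1 and 1.5 and 0.95 in Col-0_CHX. All loci spread more in Col-0_CHX too, with SDs of 0.40 and 0.40 in abh1 and 0.67 and 0.65 in Col-0_CHX, but there the 4 GRF genes were above the SD of all loci and in abh1 they were below it.

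Agreement between the libraries of a group was likewise closer in abh1. The median ratio between the 2 abh1 libraries was 1.19-fold over the 9 GRF genes, near the 1.13-fold of all loci. Between the 2 Col-0_CHX libraries it was 2.02-fold over the 4 GRF genes listed in both, against 1.25-fold for all loci. These medians cover different sets of genes. In abh1 the ratios of the same 4 genes were 1.14-fold (GRF1), 1.23-fold (GRF2), 1.07-fold (GRF3) and 1.06-fold (GRF4). GRF1 had the widest gap, 2.90-fold between its Col-0_CHX libraries, and 92.1% of loci had a smaller one. GRF4 followed at 2.42-fold and GRF3 at 1.69-fold. The difference between the groups nevertheless exceeded the gap between libraries for GRF3 and GRF4.

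In the abh1 libraries all 9 genes had an index, and GRF6 was the highest. GRF6 (AT2G06200), one of the members without the miR396 site, had 1.69 and 2.21. Both values were above every value of the 7 genes with the site in these libraries, which ranged from 0.936 to 1.36 in the first and from 0.889 to 1.39 in the second. GRF5 (AT3G13960), the other member without the site and a promoter of leaf cell proliferation, had 1.05 and 1.93. In the second abh1 library GRF5 was above all 7 genes with the site, and in the first it was above GRF2 only. The members with and without the site thus did not separate in both libraries.

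After GRF6, with a geometric mean index of 1.93, came GRF5 (1.42), GRF3 (1.34), GRF7 (1.31), GRF1 (1.13), GRF4 (1.10), GRF9 (1.10), GRF2 (1.04) and GRF8 (1.01). GRF7 (AT5G53660), which represses the stress regulator DREB2A, had 1.3 and 1.32, the closest pair of the family. Its 1.3 was a repeated value, held by 44 loci of the first abh1 library. GRF9 (AT2G45480) had 1.36 and 0.889, a 1.53-fold gap that 84.6% of all loci stayed under. Values of neighbours in this order overlapped between libraries except for GRF7 and GRF1, where 1.3 and 1.32 stood above 1.21 and 1.06.

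**Figure D3:**
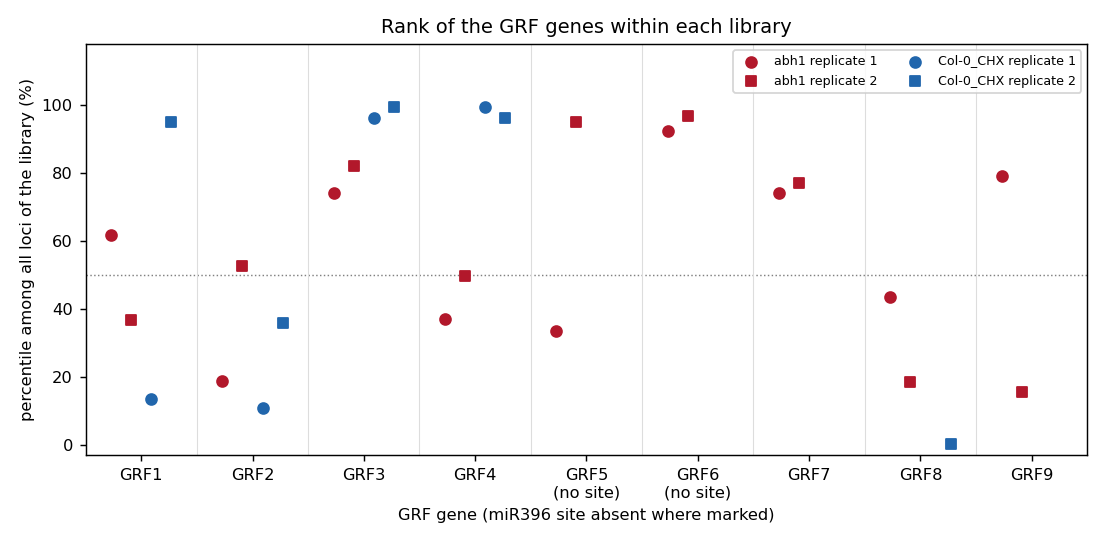
Percentile of each GRF gene's index among all loci of its own library (vertical axis, percent), with abh1 in red on the left and Col-0_CHX in blue on the right, circles for replicate 1 and squares for replicate 2, and a dotted line at the median. GRF3 and GRF4 stand at 96.2% or higher in both Col-0_CHX libraries, and GRF8 stands at 0.266% in the one that listed it.

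Ranks within each library do not depend on the scale of the library. GRF4 was at the 37.2 and 49.7 percentiles of the abh1 libraries, against 99.5 and 96.2 in the Col-0_CHX libraries. GRF3 was at the 74.1 and 82.2 percentiles in abh1 and 96.3 and 99.3 in Col-0_CHX. GRF3 was thus already in the upper range in abh1, and GRF4 was not. GRF1 was at 61.7 and 36.9 in abh1 and 13.6 and 94.9 in Col-0_CHX, and GRF2 at 18.9 and 52.7 in abh1 and 11.0 and 35.9 in Col-0_CHX. GRF6 was at 92.5 and 96.8 in the abh1 libraries, the only GRF gene above the 90th percentile in both.

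Whether a GRF gene had an index at all differed between the groups. All 9 had one in both abh1 libraries, against 4 in the first and 5 in the second Col-0_CHX library. Of the 21858 loci with an index in both abh1 libraries, 78% were listed in both Col-0_CHX libraries as well, as were 4 of 9 GRF genes (GRF1 to GRF4). A further 16.2% had none in either Col-0_CHX library, as did 4 of 9 GRF genes, namely GRF5, GRF6, GRF7 and GRF9. No repeated value in either abh1 library was found for 5 GRF genes. Of these, GRF1, GRF2 and GRF4 were listed in both Col-0_CHX libraries, and 2 of 5, GRF5 and GRF6, in neither. Of all 13953 loci of that kind, 89.8% were listed in both Col-0_CHX libraries and 6.71% in neither. As a result GRF5 and GRF6 could not be compared between the groups, and neither could the members with the site against those without it.

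Defining genes of the flower moved with this listing. All 8 flower markers (AP1, AP3, PI, AG, SEP1, SEP2, SEP3 and LFY), the organ identity factors and the meristem regulator LFY, were listed by both abh1 libraries, while each Col-0_CHX library listed 1 of them. The 3 leaf markers were listed in all 4 libraries, and of 6 root markers both abh1 libraries listed 3 and both Col-0_CHX libraries listed 2. Most flower markers expected from the label of immature inflorescence thus lacked an index in Col-0_CHX. AP1, AP3, PI, SEP2, SEP3 and LFY had none in either Col-0_CHX library, as had 16.2% of all loci listed in both abh1 libraries. The part of the flower markers in the GRF results was not tested. The reason for a missing index was not tested either, since the reads behind a value are unknown. In bulk tissue, fewer cells of a type and less RNA per cell also cannot be told apart. The ABH1 gene stood at 1.01 and 1.19 in abh1 and at 1.86 and 1.62 in Col-0_CHX, which is no measure of its RNA level and checks no genotype.

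The partners, regulators and targets of the GRFs were counted as a list. Of 17 loci on it, 15 had an index, 14 in all 4 libraries, and 0 of these 14 passed limma's test, where 0% of all loci did. Lower values in abh1 were seen at 10 of the 14 and higher ones at 4, and 7 did not overlap and were lower, beside 45.2% of all loci. The median log2 difference was -0.22, against -0.23 over all loci. MIR396A and MIR396B, the genes of the microRNA, had no index in any library, and KNAT2, a meristem homeobox gene reported as repressed by GRFs, had 1.42 and 1.64 in abh1 and none in Col-0_CHX.

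Among the coactivators, which have no DNA-binding domain of their own, all 3 GIF genes had an index in every library. GIF2 stood at 0.932 and 0.936 in abh1, and both Col-0_CHX values, 1.47 and 1.34, were above these. Its log2 difference was -0.58 ± 0.14 (SE, limma adjusted p = 0.183). GIF1, also called ANGUSTIFOLIA3, was named here after its values were seen, for its role. It stood at 2.43 and 2.05 in abh1, compared with 2.50 and 2.75 in Col-0_CHX. It was thus high in all 4 libraries, and its groups lay close but did not overlap.

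On the small RNA side, bHLH74, a miR396 target outside the GRF family, stood at 1.54 and 1.33 in abh1, compared with 2.20 and 2.42 in Col-0_CHX. Its groups did not overlap, and its log2 difference was -0.69 ± 0.16 (SE, limma adjusted p = 0.183). TCP4, which activates the miR396 genes and is itself a target of miR319, stood at 3.34 and 3.15 in abh1, compared with 2.60 and 3.46 in Col-0_CHX. It was among the loci with a high index in each library, and its groups overlapped.

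Of the genes bound or controlled by GRF or GIF proteins, CRF2, a cytokinin response factor, had the smallest p. It stood at 0.978 and 0.986 in abh1, compared with 1.42 and 1.45 in Col-0_CHX, and its log2 difference was -0.55 ± 0.13 (SE, limma adjusted p = 0.183). HEC1, a regulator of gynoecium development, stood at 1.67 and 1.23 in abh1, compared with 2.00 and 0.333 in Col-0_CHX, where its libraries lay on both sides of abh1. SYD, a chromatin remodelling ATPase, was listed as a chromatin partner and not among these genes. It stood at 1.38 and 1.47 in abh1, compared with 1.20 and 1.5 in Col-0_CHX. The limma adjusted p was 0.680 for HEC1, 0.787 for TCP4 and 0.809 for SYD. In this order, these loci had the smallest p among pathway loci higher in abh1.

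Other microRNA target families were set beside the GRFs as a description, since all share the same 4 libraries. Both Col-0_CHX libraries listed the SPL factors targeted by miR156 at 9 of 11 loci, the HAM factors targeted by miR171 at 3 of 3 and the TCP factors targeted by miR319 at 5 of 5, whereas for the GRFs it was 4 of 9. Their median log2 differences were -0.10 (9 SPL loci), -0.82 (3 HAM loci) and -0.32 (5 TCP loci), against -1.10 for the 4 GRF genes. The lowest single differences were -0.85 for an SPL, -1.39 for a HAM and -1.38 for a TCP gene. GRF3 and GRF4 were below all of these. HAM1 and TCP2 nevertheless had smaller unadjusted limma p (0.00395 and 0.00355, adjusted p 0.167 for both) than GRF3 (0.00733) and GRF4 (0.0166). All 3 HAM genes were lower in abh1 without overlap, as were 3 of 5 TCP, 3 of 9 SPL and 2 of 4 GRF genes. The share over all loci was 45.2%. Higher values in abh1 without overlap were seen at 1 TCP and 3 SPL genes, beside 10.7% of all loci. Further microRNA target families were not set beside them. No test of a difference between the families was made, and 0 loci of the 4 families passed limma's test.

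**Figure D4:**
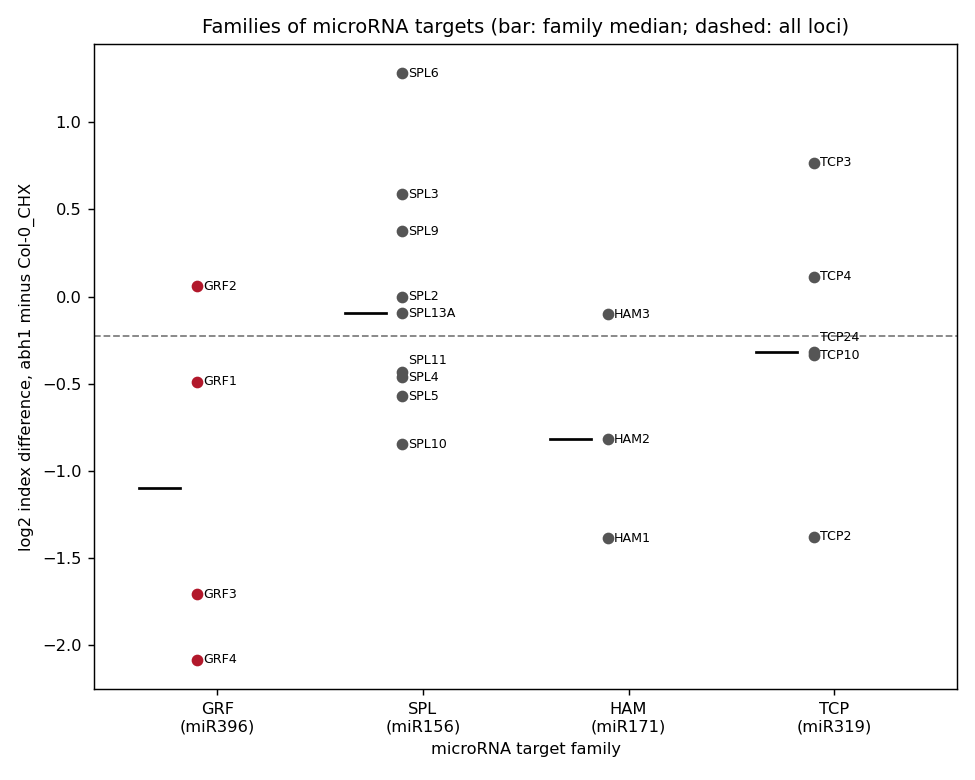
Log2 index difference, abh1 minus Col-0_CHX (vertical axis), of each gene with an index in all 4 libraries in 4 families of microRNA targets (horizontal axis), with a short bar at the family median and a dashed line at the median of all loci, -0.23. GRF3 and GRF4 are the lowest points, and GRF1 and GRF2 lie among the points of the other families.

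The loci most like the median profile of the 4 GRF genes (1.14 and 1.14 in abh1, 1.77 and 2.85 in Col-0_CHX, as medians on the log2 scale) were sought among the 6572 loci without repeated values, by Euclidean distance of the log2 index over the 4 libraries. The nearest was AT1G43690 at a distance of 0.15, with 1.10 and 1.07 in abh1 and 1.92 and 2.82 in Col-0_CHX. AT5G09770 (distance 0.21), the aquaporin RD28 (0.22) and the abscisic acid response factor ABF1 (0.22) followed. The median profile matched no single GRF gene. In the first Col-0_CHX library, GRF1, GRF2, GRF3 and GRF4 stood at 0.932, 0.857, 3.38 and 7.25, so likeness to the median is not likeness to a member. With 4 libraries it is a description only.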

How the data were processed

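Per the labels' protocols, bud RNA was selected for polyA and made into strand-specific GMUCT libraries read at 50 nt. The tools were STAR 2.4.0 and cutadapt 1.4.2, and the build was TAIR10, per the submitters' processing notes. For each library the authors deposited the decay index of every gene model listed, a linear ratio judged from its values. How it was computed, the read minimum and the annotation were not given in the sources used here. Depth is therefore unknown and no counting interval was made.

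Indices were put on the log2 scale without a pseudocount, since none was 0. The 17049 loci listed in all 4 libraries were fitted in R 4.3.3 by limma 3.58.1, using lmFit and eBayes without covariates, for abh1 minus Col-0_CHX, with Benjamini-Hochberg adjustment over all of them and a threshold of 0.05. The fit was also run on simulated data that gave both groups the same spread at each locus. In the real data the abh1 libraries agreed more closely, so that run does not test the fit under unequal spread. Tables used Python 3.11.15, pandas 2.3.3 and numpy 2.4.6. Identical values in both libraries of a group made up 0.737% (abh1) and 0.736% (Col-0_CHX), so the libraries were counted as separate. Names were taken from RefSeq (assembly TAIR10.1), and no coordinates are given because the builds differ.

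All 9 GRF loci were named. Of the pathway loci, up to 3 with the smallest p in each direction were named, plus GIF1, MIR396A, MIR396B and KNAT2 outside the rule. The 4 loci nearest to the GRF median profile were named as well. The members and lists were chosen with earlier results of these data known. Alternatives were 2 scalings, another variance model, other sets of loci, a replicate block, a threshold of 0.1 and leaving out each library.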

Additional observations from a re-analysis of the deposited data

How the results depend on the processing

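GRF3 and GRF4 were lower in abh1 under all alternatives run, with log2 differences of -2.09 to -1.03 and of -2.72 to -1.45 and limma adjusted p of 0.0726 to 0.707 for both, and neither passed 0.05. GRF1 ranged from -1.26 to 0.28, with 0.28 without the second Col-0_CHX library. GRF2 ranged from -0.16 to 0.28 (0.27 as the highest with a library left out), with -0.09 without the second abh1 library and -0.16 without the first Col-0_CHX library. The other 33 of 36 values for single GRF genes kept their direction and their side of the threshold. The median of the GRF genes, -1.10, was -0.62 after quantile normalization, -0.88 after centring and -0.49 with GRF8 included by the fit that asks for 1 library of either group or more, and ranged from -1.35 to -0.53 with 1 library left out. The number of loci past the threshold was 0, with 3422 at an unadjusted p under 0.05. It was 567 over the 6572 loci without repeated values, which hold no GRF gene, so no GRF value exists there. It stayed 0 under the other alternatives at the threshold of 0.05, each library left out among them, and was 0 at 0.1 with all libraries. At 0.1 it was 2564 loci (15.0%) without the first Col-0_CHX library, GRF1, GRF3 and GRF4 among them, and 4396 (25.8%) without the second, GRF3 and GRF4 among them. Where a group is left with 1 library, its spread is taken from the other group. With the replicate block the count was 0 and GRF3 and GRF4 both had a limma adjusted p of 0.345. The replicate numbers showed no pairing (correlation of deviations -0.00432 across loci), and the block changed no call. The depth behind each value is unknown.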
